A study of Mus musculus with 24 samples.

Results

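The genes of cholesterol synthesis, uptake and efflux were described as 1 module in inguinal white adipose tissue of young and aged mice with and without the mitochondrial uncoupler BAM15. The module holds 33 genes, each found by its symbol in the deposited normalised table and read on the same Ensembl entry of the deposited count table. The table has 17541 genes, of which 15939 passed a filter on low counts, and all 33 members passed it. The members fall into 5 roles: 7 enzymes of the early mevalonate steps, 11 enzymes of squalene and sterol synthesis, 6 regulators of the SREBP2 transcription factor, 5 genes of uptake, transport and storage, and 4 genes of efflux. Several genes of these routes are not members and were not analysed here.

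All mice were C57BL/6J WT on a high-fat diet, and the depot is a fat pad under the skin. The 4 groups were Aged BAM15 (92 weeks, n = 5), Aged CTRL (92 weeks, n = 6), Young BAM15 (16 weeks, n = 6) and Young CTRL (16 weeks, n = 7). BAM15 is a small molecule that lets protons leak across the inner mitochondrial membrane, and its dose and the sex of the mice are not given in the labels. The QuantSeq kit reads 3' ends, whatever the length of the transcript, so CPM (a gene's counts scaled to a common library size) was used to compare libraries and never to compare 1 gene with another.

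Cells build cholesterol from acetyl-CoA: the mevalonate steps make isoprenoid units, squalene synthesis joins them, and the sterol steps turn lanosterol into cholesterol. The transcription factor SREBP2 switches these enzymes on when the endoplasmic reticulum is low in sterol, after SCAP has carried it to the Golgi, and INSIG proteins hold SCAP back when sterol is plentiful. The LXR receptors sense oxysterols and switch on the pumps that export cholesterol. Adipocytes store free cholesterol in and around their lipid droplets, and sebaceous glands of the skin are rich in sterol and wax synthesis.

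The stretches of 250 bases before the RefSeq start site are shown for 6 members that the results below turn on. SREBP2 and NF-Y, which binds CCAAT, are known to act together at such promoters. All starts named below are those of RefSeq. By the GENCODE gene models, the windows of Idi1, Msmo1, Hsd17b7 and Insig1 run past the start into the gene. The sequences are from a set of RefSeq promoters on GRCm38.p6, which held at least 1 start for 27 of the 33 members. Fdps, Sqle, Fdft1, Npc1, Stard4 and Abcg1 had no entry in that set and were not searched. The search, on both strands, was for the sterol regulatory element TCACNCCAC, the CCAAT box CCAAT and the E-box CACGTG, and none of these letters overlap in the windows shown. Capitals mark the matches to TCACNCCAC and CCAAT, read on the strand of the gene, so that ATTGG is a CCAAT box on the other strand.

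Hmgcs1 lies at chr13:119690101-119690350 on the plus strand, Idi1 at chr13:8885356-8885605 on the plus strand, Msmo1 at chr8:64733579-64733828 on the minus strand, Nsdhl at chrX:72918271-72918520 on the plus strand, Hsd17b7 at chr1:169969206-169969455 on the minus strand and Insig1 at chr5:28071162-28071411 on the plus strand, each window ending at the base before the start.
Hmgcs1: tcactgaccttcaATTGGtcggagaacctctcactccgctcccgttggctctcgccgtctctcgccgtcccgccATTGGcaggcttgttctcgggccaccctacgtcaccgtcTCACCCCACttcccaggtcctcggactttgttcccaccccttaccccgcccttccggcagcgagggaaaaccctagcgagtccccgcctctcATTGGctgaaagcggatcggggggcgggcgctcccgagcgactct
Idi1: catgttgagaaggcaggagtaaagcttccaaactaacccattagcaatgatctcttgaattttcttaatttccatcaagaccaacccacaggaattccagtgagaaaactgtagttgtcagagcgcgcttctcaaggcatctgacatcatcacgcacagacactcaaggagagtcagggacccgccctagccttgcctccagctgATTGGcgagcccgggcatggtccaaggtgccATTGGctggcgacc
Msmo1: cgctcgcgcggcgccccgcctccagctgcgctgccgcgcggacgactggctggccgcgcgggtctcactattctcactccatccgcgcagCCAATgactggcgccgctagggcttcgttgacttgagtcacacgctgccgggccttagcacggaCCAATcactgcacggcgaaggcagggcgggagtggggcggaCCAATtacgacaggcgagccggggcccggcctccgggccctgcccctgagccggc
Nsdhl: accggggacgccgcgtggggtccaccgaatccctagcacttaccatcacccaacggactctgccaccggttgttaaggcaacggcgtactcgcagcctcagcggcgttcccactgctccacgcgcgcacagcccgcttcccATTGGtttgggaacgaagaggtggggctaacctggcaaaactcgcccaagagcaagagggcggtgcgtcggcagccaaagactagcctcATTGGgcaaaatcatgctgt
Hsd17b7: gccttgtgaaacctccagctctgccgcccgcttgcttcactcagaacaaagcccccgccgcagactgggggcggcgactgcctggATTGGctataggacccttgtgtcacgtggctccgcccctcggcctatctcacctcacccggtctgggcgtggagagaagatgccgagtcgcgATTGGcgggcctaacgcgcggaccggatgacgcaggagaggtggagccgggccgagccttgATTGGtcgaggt
Insig1: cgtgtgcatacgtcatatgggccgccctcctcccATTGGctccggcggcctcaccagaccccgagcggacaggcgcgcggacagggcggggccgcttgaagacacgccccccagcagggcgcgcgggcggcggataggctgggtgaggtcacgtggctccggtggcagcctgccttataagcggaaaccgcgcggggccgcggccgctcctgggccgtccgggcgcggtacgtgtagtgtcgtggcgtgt

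Among the 27 members with an entry, the letters TCACNCCAC stood in 1 promoter, that of Hmgcs1, 137 bases before its start. They stood in 346 of 32851 RefSeq promoter windows of the same length (1.05%). A CCAAT box stood in 14 of the 18 windows of the 15 synthesis enzymes with an entry (77.8%) and in 6 of the 16 windows of the 12 other members (37.5%), against 11120 of 32851 windows (33.8%). An E-box stood in 6 of the 34 member windows (17.6%), against 1978 of 32851 (6.02%). These are matches of letters, with no measurement of binding.

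Before the comparisons, several libraries stand apart. Totals ran from 8.62 to 21.9 M counts, with group means of 15.6 M in Aged BAM15, 15.1 M in Aged CTRL, 11.3 M in Young BAM15 and 13.8 M in Young CTRL. The 10 adipocyte markers came to 16805 to 80116 CPM in 22 libraries, to 18946 CPM in Young CTRL 1 and to 25931 CPM in Young CTRL 7. Young CTRL 1 held 3849 CPM of 14 epidermis markers in sum and Young CTRL 7 held 807, against 15.3 to 47.55 CPM in the other 22. Sebaceous gland and hair follicle markers (10 genes) came to 637 CPM in Young CTRL 7 and to 2768 CPM in Young CTRL 1, against 3.69 to 28.9 CPM elsewhere. Skeletal muscle markers (10 genes) reached 69850 CPM in Young BAM15 3 and 62520 in Young CTRL 7, and stayed at or under 24380 CPM elsewhere. The share of mt-Rnr2, a ribosomal RNA of mitochondria, was 0.257% of counts or less in 4 libraries (Aged BAM15 2, Aged BAM15 5, Aged CTRL 2 and Young CTRL 4) and 0.722% or more in all others.

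Young CTRL 1 carried most of the sterol pathway at its highest. It was the highest of all 24 libraries for 19 of 33 members (57.6%) and for 16 of the 18 synthesis enzymes (88.9%), against 1120 of 15939 genes (7.03%). For 14 of 33 members (42.4%) it exceeded the highest of the other 23 libraries more than 2-fold, against 320 of 15939 genes (2.01%). Idi1, the isomerase that activates isoprenoid units, had 97.7 CPM there and at most 1.59 CPM in any other library, 133 times the mean of Young CTRL 2 to 7. Soat1, which esterifies cholesterol for storage, had 1010 CPM there and at most 41.8 CPM elsewhere, a ratio of 55.2. The same ratio was 16.1 for mevalonate kinase (Mvk), 14.4 for Mvd, 10.1 for Msmo1 and 8.77 for Lss, the enzymes of mevalonate decarboxylation, C4 oxidation and ring closure.

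Of the regulators Srebf2 and Scap shared this, at ratios of 3.25 and 6.08, while Insig1 and the main efflux genes did not. The ratio of Young CTRL 1 to the mean of Young CTRL 2 to 7 was 0.649 for Insig1, 0.5404 for Npc2, 0.712 for Abca1 and 0.6545 for Nr1h3, and among the enzymes it was 0.661 for Fdft1 and 0.666 for Sc5d. The sebaceous markers Awat2, a wax synthase, and Krt79 stood at 889 and 899 CPM in Young CTRL 1. Young CTRL 7 had 0 and 15.35 CPM. Krt25, Krt71 and Far2 of the same list went the other way. They were at 307.5, 222.2 and 4.21 CPM in Young CTRL 7, against 23.96, 9.39 and 0.451 CPM in Young CTRL 1. For 7 of the 10 genes of that list, Young CTRL 1 was the highest of the 24 libraries. Young CTRL 7 had 0 CPM of Idi1 and 19.5 CPM of Soat1, inside the range of the other libraries. How much of each member in Young CTRL 1 came from skin was not tested, and every comparison with Young CTRL is given with and without this library.

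**Figure D1:**
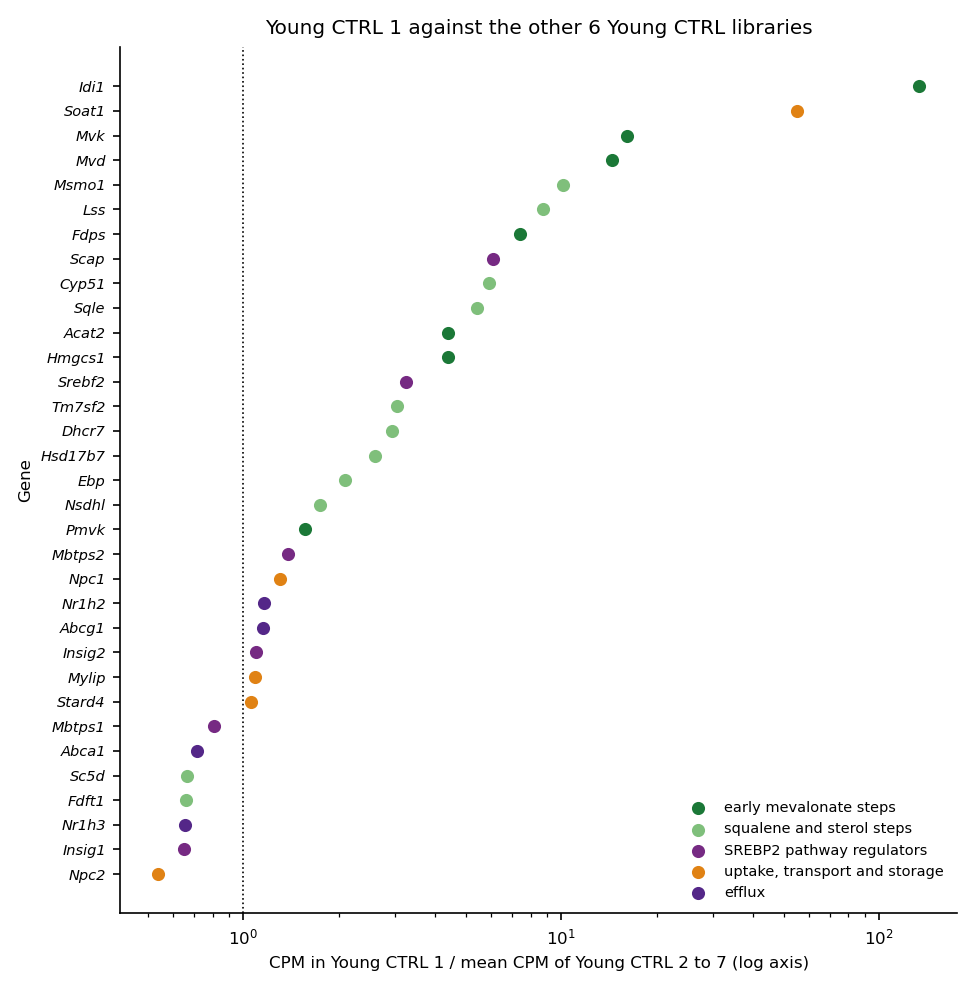
CPM in Young CTRL 1 divided by the mean CPM of Young CTRL 2 to 7 for the 33 genes (log axis), coloured by role, with a dotted line at 1. Idi1 (133), Soat1 (55.2) and Mvk (16.1) lie farthest right, and Npc2 (0.5404) lies left of the line.

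**Figure D2:**
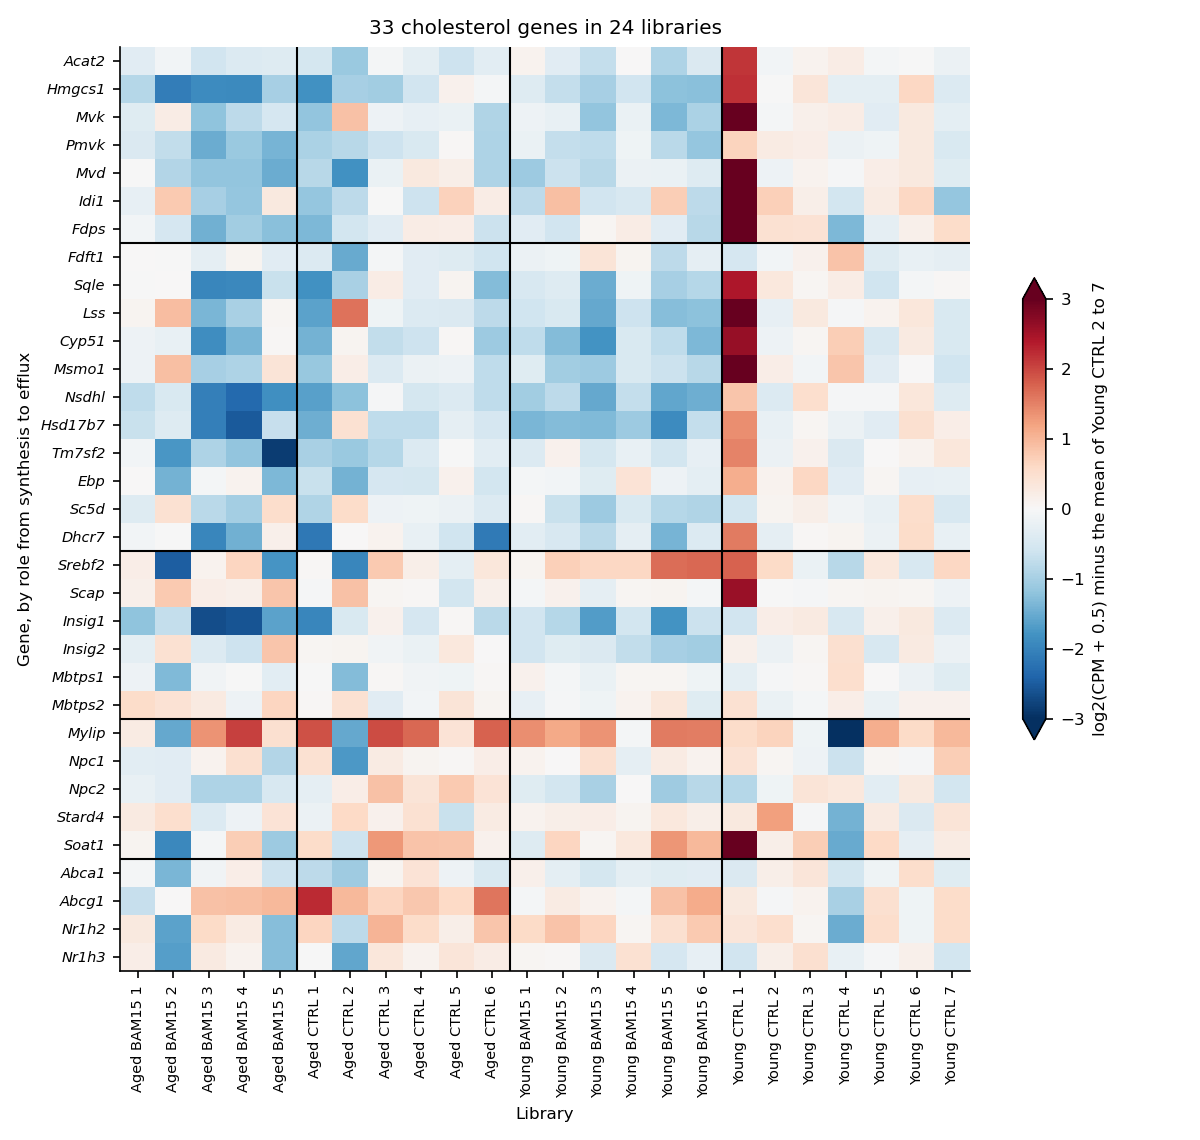
The 33 genes in the 24 libraries as log2(CPM + 0.5) minus the mean of Young CTRL 2 to 7; red is higher and blue lower, black lines part the groups and roles. The column of Young CTRL 1 is red through the enzymes other than Fdft1 and Sc5d, and blue prevails in the enzymes of Young BAM15.

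BAM15 in young mice was the comparison with the most members at small p. All 18 synthesis enzymes had log2 changes below 0 in Young BAM15 against Young CTRL, with a median of -1.38, and all 18 stayed below 0 without Young CTRL 1, with a median of -0.62. The medians over all genes tested were 0.03 and 0.04. The lowest adjusted p of a member was 0.179 with 24 libraries and 0.181 without Young CTRL 1, so edgeR's quasi-likelihood test called 0 of 33 members at an adjusted p under 0.05. It called 0 of 15939 genes (0%) and, without Young CTRL 1, 0 of 15877 (0%). At an unadjusted p under 0.05, 20 members were lower and 0 higher, against 1096 of 15939 genes lower (6.88%). With that library left out, 11 members were lower and 0 higher, against 1089 of 15877 genes lower (6.86%). The libraries rich in muscle transcripts were also left out 1 at a time, with Young CTRL 1 kept. Without Young BAM15 3, 16 members were at that threshold in either direction, against 2099 of 15896 genes (13.2%). Without Young CTRL 7 there were 20, against 2230 of 15872 (14%).

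Other tools called members in this comparison. The DESeq2 Wald test called Hmgcs1, Lss, Cyp51, Msmo1, Nsdhl and Hsd17b7 lower in Young BAM15, among 161 of 15939 genes (1.01%). It called Nsdhl and Hsd17b7 when Young CTRL 1 was left out, among 281 of 15877 genes (1.77%). With limma-voom and sample quality weights, 7 members were called lower among 679 of 15939 genes (4.26%): Hmgcs1, Pmvk, Cyp51, Nsdhl, Hsd17b7, Sc5d and Insig1. Msmo1 was called too without Young CTRL 1, among 1073 of 15877 genes (6.76%). Nsdhl and Hsd17b7, which act on neighbouring steps of C4 demethylation, were called by both tools with and without that library. In Lss, Nsdhl and Hsd17b7, all 6 Young BAM15 libraries lay below all 7 Young CTRL libraries, against 103 of 15939 genes (0.646%). Insig1 joined them without Young CTRL 1, against 196 of 15939 genes (1.23%).

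Marker lists of several cell types moved with the same groups. The 10 B cell markers summed to 335 to 2369 CPM (median 1084) in Young BAM15, against 604 to 1272 CPM (median 872) in Young CTRL 2 to 7, with a higher median in Young BAM15 for 9 of 10. The 10 adipocyte markers summed to 16805 to 44414 CPM (median 25832) in Young BAM15, against 25931 to 54615 CPM (median 45114) in Young CTRL 2 to 7, with a higher median in Young BAM15 for 1 of 10. Sebaceous gland and hair follicle markers came to 7.67 to 16.5 CPM (median 13.4) in Young BAM15, against 14.1 to 637 CPM (median 20.7) in Young CTRL 2 to 7, with a higher median in Young BAM15 for 2 of 10. Krt79 is a keratin of sebaceous ducts. It was at 3.63 to 9.40 CPM in Young BAM15, against 11.5 to 22.9 CPM in Young CTRL 2 to 7, without overlap. The same held, without Young CTRL 1, for 196 of 15939 genes (1.23%), lower in Young BAM15. Krt79 gave most of the summed CPM in Young CTRL 2 to 6, so that sum and Krt79 are not separate observations. The 2 genes with a higher median in Young BAM15 were Krt17 and Awat2. Krt17 was at 1.317 to 9.992 CPM there, against 1.251 to 82.67 CPM in Young CTRL 2 to 7. Awat2 was at 0 to 0.962 CPM, against 0 to 0.521 CPM. Of the 10, 6 (Mc5r, Dgat2l6, Far2, Scd3, Krt25 and Krt71) had a median of 0 over libraries other than Young CTRL 1 and 7. A higher median in Young BAM15 than in Young CTRL 2 to 7 was also seen for 2 of 14 epidermis, 2 of 12 macrophage and 0 of 10 skeletal muscle markers.

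With the B cell markers as a covariate and without Young CTRL 1, a fit added after the data had been seen, 3 of 33 members had an unadjusted p under 0.05, against 332 of 15877 genes (2.09%), and the median of the 18 enzymes was -0.34. The part of sebaceous gland, adipocyte or other cells in the values of each gene was not tested. In bulk tissue, fewer cells of a type and less RNA per cell cannot be told apart.

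**Figure D3:**
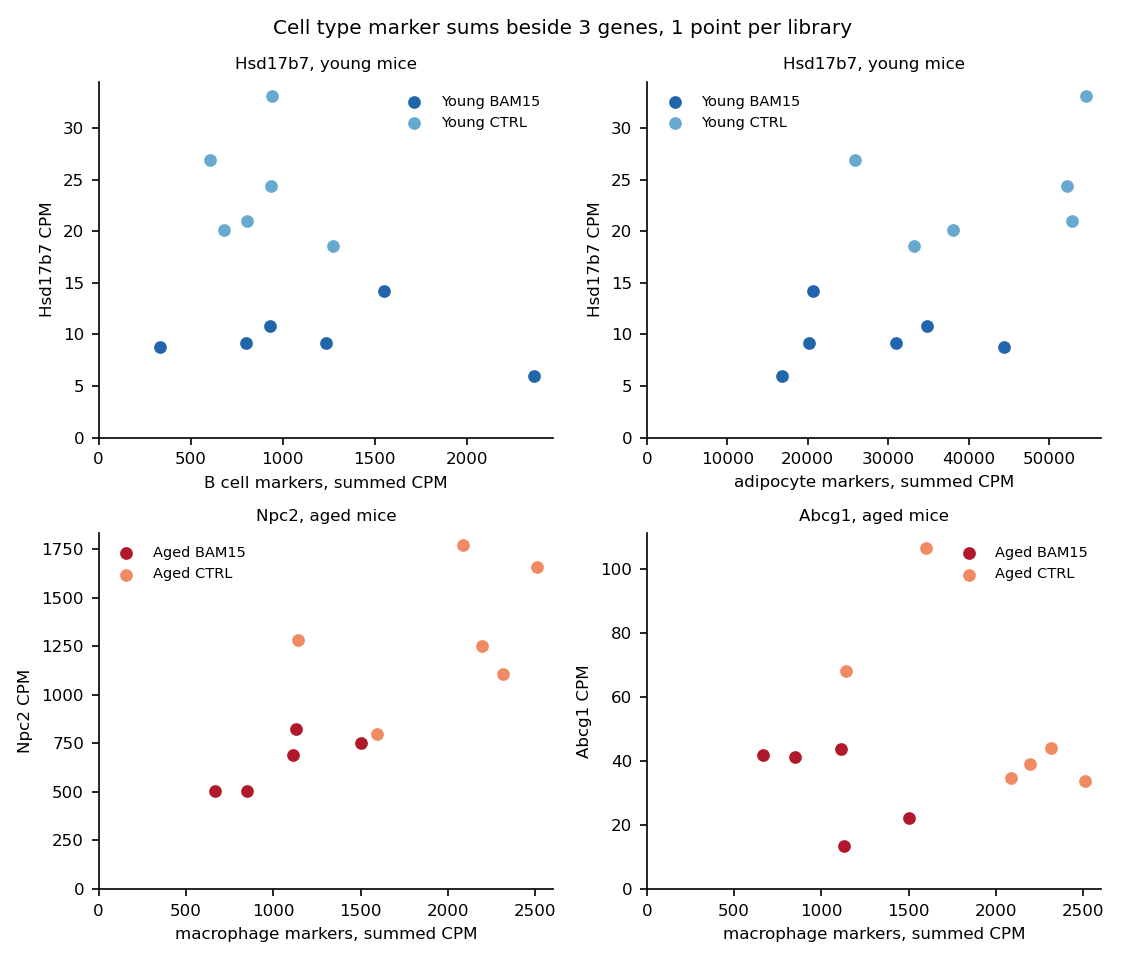
Marker sums (horizontal) beside CPM of a gene (vertical), 1 point per library, without Young CTRL 1. In the upper panels all 6 Young BAM15 points lie below all Young CTRL points in Hsd17b7, at B cell sums of 335 to 2369 CPM; in the lower panels Npc2 and Abcg1 of aged mice stand beside the macrophage sum.

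The enzyme changes with BAM15 in aged mice depended on the tool. Of the 18 synthesis enzymes, 11 had log2 changes below 0 and 7 above 0 in Aged BAM15 against Aged CTRL, with a median of -0.15, against 0.02 over all genes tested, in the edgeR fit. With limma-voom 16 of 18 were below 0, with a median of -0.57. The members with the smallest p were Npc2 (-1.0 ± 0.27, SE) and Insig1 (-1.12 ± 0.37, SE). The edgeR test called 0 of 33 members and 0 of 15939 genes (0%), and likewise 0 of 15877 without Young CTRL 1 (0%). At an unadjusted p under 0.05, 3 members were lower (Insig1, Npc2 and Abcg1) and 0 higher, against 732 of 15939 genes lower (4.59%). Without Young CTRL 1 they were Hmgcs1, Insig1 and Npc2, against 759 of 15877 genes lower (4.78%). DESeq2 called Npc2 lower with an adjusted p of 0.0346, among 105 of 15939 genes (0.659%), and again without Young CTRL 1, among 115 of 15877 (0.724%). With limma-voom, Nsdhl, Hsd17b7, Insig1 and Npc2 were called lower among 964 of 15939 genes (6.05%), and Hmgcs1 also without Young CTRL 1, among 982 of 15877 (6.19%). The enzyme median passed 0 when 1 library was left out, to 0.04 without Aged BAM15 3 and 0.01 without Aged BAM15 4, and with Aged BAM15 2 and 5, Aged CTRL 2 and Young CTRL 4 left out 16 of 18 enzymes were below 0. Sebaceous gland and hair follicle markers came to 3.69 to 9.01 CPM (median 6.51) in Aged BAM15, against 6.13 to 28.9 CPM (median 19.8) in Aged CTRL, with a higher median in Aged BAM15 for 1 of 10, and for 9 of 10 B cell, 9 of 10 skeletal muscle, 8 of 14 epidermis and 4 of 10 adipocyte markers. The part of these in the members' values was not tested.

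In the age comparison, the size of the enzyme changes depended on Young CTRL 1. All 18 synthesis enzymes had log2 changes below 0 in Aged CTRL against Young CTRL, with a median of -1.04, and without Young CTRL 1 17 did, with a median of -0.53. The medians over all genes tested were -0.04 and -0.01. The edgeR test called 0 of 33 members, against 33 of 15939 genes (0.207%), and 0 without Young CTRL 1, against 24 of 15877 (0.151%). At an unadjusted p under 0.05, 15 members were lower and 2 higher (Npc2 and Abcg1), against 616 of 15939 genes lower (3.86%). Without Young CTRL 1, 5 members were lower (Acat2, Hmgcs1, Pmvk, Fdft1 and Nsdhl) and 1, Abcg1, was higher, against 453 of 15877 genes lower (2.85%). DESeq2 called Abcg1 higher with an adjusted p of 0.0351, among 179 of 15939 genes (1.12%), and called 0 members among 123 of 15877 genes (0.775%) without Young CTRL 1. With limma-voom 0 members were called, among 147 of 15939 genes (0.922%) and, without Young CTRL 1, 120 of 15877 (0.756%). A higher median in Aged CTRL than in Young CTRL 2 to 7 was seen for all 12 macrophage, 9 of 10 skeletal muscle, 8 of 10 B cell and 6 of 10 adipocyte markers, and for 1 of 10 sebaceous and 2 of 14 epidermis markers. Their part in the members' values was not tested.

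The age comparison shares Aged CTRL with BAM15 in aged mice and Young CTRL with BAM15 in young mice, so the changes of a gene in these comparisons are not independent. The difference between both BAM15 effects (aged minus young) had a median of 1.00 over the 18 enzymes, and 0.50 without Young CTRL 1, against -0.04 and -0.07 over all genes. The edgeR test of this interaction called 0 of 33 members and 0 of 15939 genes (0%), and 0 of 15877 without Young CTRL 1 (0%). DESeq2 and limma-voom called 0 members as well, with and without Young CTRL 1. At an unadjusted p under 0.05 there were 8 members, against 809 of 15939 genes (5.08%), and 5 without Young CTRL 1 (Cyp51, Msmo1 and Insig2 above 0, Soat1 and Abcg1 below 0), against 805 of 15877 (5.07%). The largest among the enzymes without Young CTRL 1 were the sterol C4 oxidase Msmo1 (1.17 ± 0.44, SE) and Cyp51 (1.07 ± 0.48, SE). The lowest edgeR adjusted p of a member was 0.899, and 0.864 without Young CTRL 1, so a different response at both ages was not shown for any of the 33 members.

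**Figure D4:**
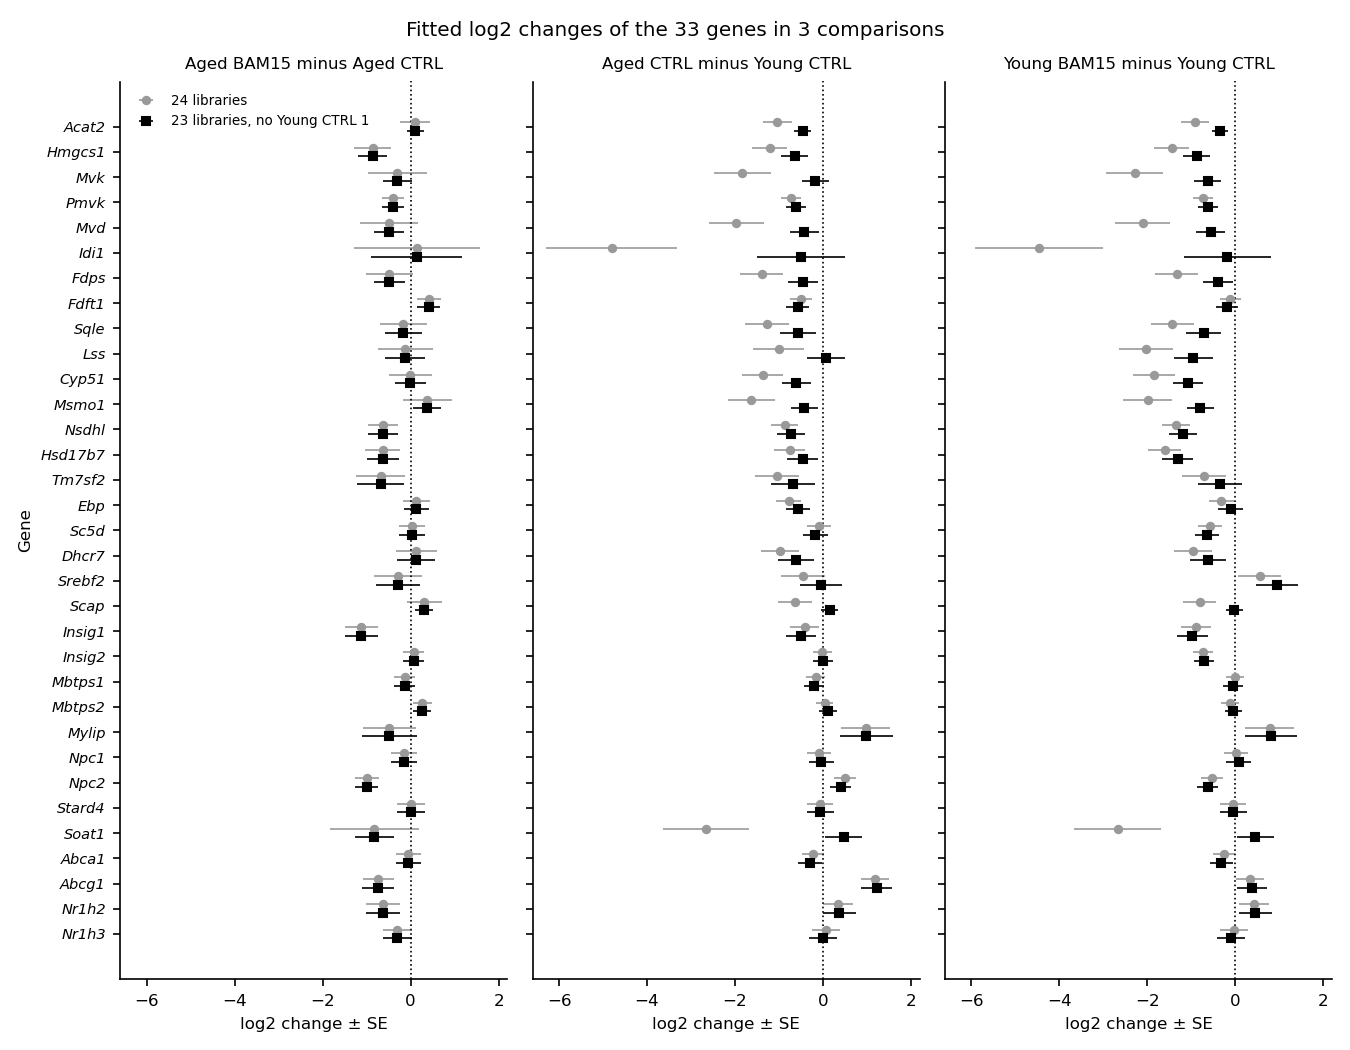
Log2 changes with SE of the 33 genes in Aged BAM15 minus Aged CTRL, Aged CTRL minus Young CTRL and Young BAM15 minus Young CTRL, with all 24 libraries (grey circles) and without Young CTRL 1 (black squares). Idi1 moves from -4.80 to -0.50 and Soat1 from -2.65 to 0.48 in the age panel when Young CTRL 1 is left out, while Nsdhl in young mice is at -1.34 and -1.20.

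All 7 genes of the early mevalonate steps had log2 changes below 0 with BAM15 in young mice, of which Hmgcs1 and Pmvk had an unadjusted p under 0.05 without Young CTRL 1. The median was -0.56 without Young CTRL 1 and -1.45 with it, and Hmgcs1 was farthest from 0 without it. Hmgcs1 is the cytosolic HMG-CoA synthase that feeds the pathway. Hmgcs1 stood at 312, 136, 153, 150.5 and 284 CPM in Aged BAM15 1 to 5, against 160.3 to 620.3 CPM (median 333) in Aged CTRL. Hmgcs1 in Young BAM15 was at 238 to 437 CPM (median 316), against 428 to 880.1 CPM (median 516) in Young CTRL 2 to 7 and 2591 CPM in Young CTRL 1. The young groups overlapped only at Young BAM15 1 and Young CTRL 7, and all 5 Aged BAM15 libraries lay below the mean of Aged CTRL. Hmgcs1 had a log2 change of -0.87 ± 0.43 in Aged BAM15 against Aged CTRL (SE, edgeR adjusted p = 0.552). The Hmgcs1 change in Young BAM15 against Young CTRL was -1.45 ± 0.40, and -0.88 ± 0.30 without Young CTRL 1 (SE, edgeR adjusted p = 0.188 and 0.2155). Between Aged CTRL and Young CTRL it was -1.21 ± 0.40, and -0.64 ± 0.30 without Young CTRL 1.

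Pmvk, which phosphorylates mevalonate phosphate, had the smallest p of its role with age once Young CTRL 1 was left out. Aged BAM15 1 to 5 gave Pmvk at 42.8, 34.6, 20.2, 26.4 and 21.7 CPM, against 29.9 to 59.2 CPM (median 34.8) in Aged CTRL. In Young BAM15, Pmvk ran over 25.7 to 52.97 CPM (median 34.3), against 42.2 to 71.3 CPM (median 59.8) in Young CTRL 2 to 7 and 91.9 CPM in Young CTRL 1. The Pmvk change was -0.62 ± 0.23 in Young BAM15 and -0.62 ± 0.23 in Aged CTRL against Young CTRL, both without Young CTRL 1 (SE), and -0.40 ± 0.25 in Aged BAM15 against Aged CTRL. All 6 Young BAM15 libraries were below the Young CTRL mean, yet both groups overlapped. Counts of Acat2 came to 53.96, 63.8, 45.9, 50.8 and 51.99 CPM in Aged BAM15 1 to 5, against 31.01 to 65.1 CPM (median 50.85) in Aged CTRL. The Acat2 values of Young BAM15 were 35.8 to 73.1 CPM (median 52.01), against 60.7 to 79.6 CPM (median 66.6) in Young CTRL 2 to 7 and 302 CPM in Young CTRL 1. Acat2, the cytosolic thiolase that makes acetoacetyl-CoA, thus had Young CTRL 1 far above 23 libraries that lay between 31.01 and 79.6 CPM. Without Young CTRL 1, its log2 change was -0.46 ± 0.19 with age and -0.35 ± 0.19 with BAM15 in young mice, against -1.04 ± 0.32 and -0.92 ± 0.32 with it.

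Mvk, Mvd, Idi1 and Fdps, the remaining enzymes up to farnesyl diphosphate, had most of their log2 change from Young CTRL 1. In Young BAM15 against Young CTRL their log2 changes were -2.29, -2.10, -4.47 and -1.34 with 24 libraries. Without Young CTRL 1 they were -0.63, -0.56, -0.18 and -0.39 in the same order. With age, the 4 were at -0.17, -0.43, -0.50 and -0.45 without Young CTRL 1. Idi1 was barely detected outside that library, at 0 to 1.59 CPM, so its change without Young CTRL 1 rests on few counts. Over the 7 genes of this role, the edgeR adjusted p ran from 0.2155 to 0.963 with BAM15 in young mice, from 0.376 to 0.985 with BAM15 in aged mice and from 0.499 to 0.997 with age, all without Young CTRL 1.

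Among squalene and sterol enzymes, 2 genes that remove the C4 methyl groups led the comparison of young mice. Nsdhl, the C4 decarboxylase, and Hsd17b7, the 3-keto reductase of the next step, had the smallest p of the module in that comparison, with and without Young CTRL 1. Nsdhl stood at 25.6, 31.5, 10.2, 8.26 and 11.8 CPM in Aged BAM15 1 to 5, against 13.7 to 42.4 CPM (median 27.8) in Aged CTRL. Nsdhl in Young BAM15 was at 14.6 to 26.5 CPM (median 18.3), against 32.6 to 62.4 CPM (median 42.8) in Young CTRL 2 to 7 and 78.4 CPM in Young CTRL 1. No Young BAM15 library reached the lowest Young CTRL library, while Aged BAM15 split into 2 libraries above 25 CPM and 3 below 12 CPM. Nsdhl had a log2 change of -1.34 ± 0.32 in Young BAM15, and -1.20 ± 0.32 without Young CTRL 1 (SE, edgeR adjusted p = 0.179 and 0.181). The Nsdhl change was -0.63 ± 0.34 in Aged BAM15 against Aged CTRL and -0.73 ± 0.32 in Aged CTRL against Young CTRL without Young CTRL 1.

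Aged BAM15 1 to 5 gave Hsd17b7 at 14.6, 17.8, 5.297, 3.69 and 14.5 CPM, against 8.18 to 32.6 CPM (median 15.1) in Aged CTRL. In Young BAM15, Hsd17b7 ran over 5.99 to 14.2 CPM (median 9.16), against 18.5 to 33.15 CPM (median 22.65) in Young CTRL 2 to 7 and 62.3 CPM in Young CTRL 1. The young groups were apart by 14.2 against 18.5 CPM at their nearest libraries, and Aged BAM15 3 and 4 were the 2 lowest of the 24. Hsd17b7 had a log2 change of -1.60 ± 0.37 in Young BAM15, and -1.31 ± 0.35 without Young CTRL 1 (SE, edgeR adjusted p = 0.179 and 0.181). Aged BAM15 against Aged CTRL gave -0.64 ± 0.40, with 4 of 5 libraries below the Aged CTRL mean, and only limma-voom called it there.

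The other late enzymes that limma-voom or DESeq2 called in young mice were Cyp51, which removes the C14 methyl group, Msmo1, Lss, which closes the sterol rings, and Sc5d, a late desaturase. Without Young CTRL 1 their log2 changes in Young BAM15 were -1.08 ± 0.34, -0.79 ± 0.31, -0.95 ± 0.44 and -0.64 ± 0.28 (SE). With it they were -1.85, -1.99, -2.03 and -0.57 in the same order. In Aged BAM15 against Aged CTRL, Cyp51, Msmo1, Lss and Sc5d stood at -0.01 ± 0.49, 0.38 ± 0.57, -0.13 ± 0.63 and 0.02 ± 0.30. For Msmo1 the 5 Aged BAM15 libraries spread from 24.5 to 93.8 CPM, against 22.35 to 57.1 CPM in Aged CTRL, with its highest values in Aged BAM15 2 and 5, which have low mt-Rnr2.

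Sqle, the squalene epoxidase, and Fdft1, the squalene synthase, open this branch. Counts of Sqle came to 11.03, 11.15, 2.5, 2.53 and 6.74 CPM in Aged BAM15 1 to 5, against 2.775 to 13.02 CPM (median 6.99) in Aged CTRL. The Sqle values of Young BAM15 were 3.63 to 10.01 CPM (median 6.87), against 7.125 to 13.98 CPM (median 11.5) in Young CTRL 2 to 7 and 61.3 CPM in Young CTRL 1. The Sqle groups overlapped in all 3 comparisons once Young CTRL 1 was left out, and its log2 change in young mice was then -0.72 ± 0.40. Fdft1 stood at 19.8, 19.4, 16.25, 20.9 and 15.45 CPM in Aged BAM15 1 to 5, against 6.56 to 18.8 CPM (median 14.65) in Aged CTRL. Fdft1 in Young BAM15 was at 11.15 to 25.8 CPM (median 17.5), against 14.85 to 36.1 CPM (median 17.5) in Young CTRL 2 to 7 and 13.6 CPM in Young CTRL 1. Fdft1 had a log2 change of 0.41 ± 0.27 in Aged BAM15 against Aged CTRL, with all 5 libraries above the Aged CTRL mean, and of -0.58 ± 0.25 in Aged CTRL against Young CTRL without Young CTRL 1. Its lowest value, 6.56 CPM, and its highest, 36.1 CPM, are both in libraries with low mt-Rnr2. Tm7sf2, Ebp and Dhcr7, a reductase, an isomerase and the last reductase of one branch, had log2 changes of -0.35 ± 0.50, -0.11 ± 0.28 and -0.61 ± 0.41 in Young BAM15 without Young CTRL 1. Over the 11 genes of this role the edgeR adjusted p ran from 0.181 to 0.911 in young mice, from 0.584 to 0.997 in aged mice with BAM15, and from 0.628 to 0.9985 with age, without Young CTRL 1.

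**Figure D5:**
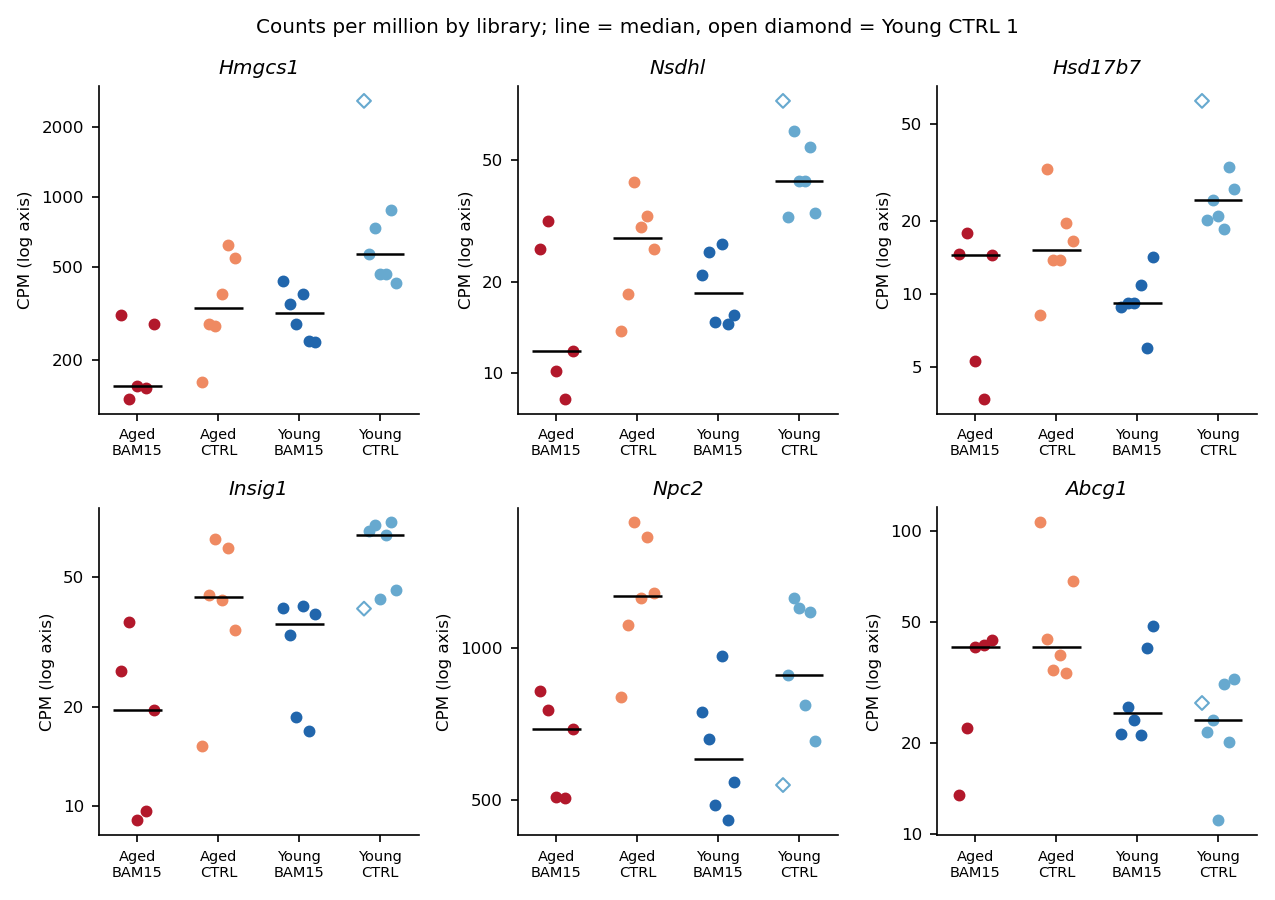
CPM (log axis) of Hmgcs1, Nsdhl, Hsd17b7, Insig1, Npc2 and Abcg1 in each library by group, with the group median as a line and Young CTRL 1 as an open diamond. Young BAM15 points of Nsdhl (14.6 to 26.5 CPM) lie below those of Young CTRL (32.6 to 78.4 CPM), and Aged CTRL points of Abcg1 lie above those of Young CTRL.

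Of the 6 SREBP2 regulators, Insig1 and Insig2 had the smallest p with BAM15 in young mice. Insig1 is itself a target of SREBP2, and its protein holds SCAP in the endoplasmic reticulum. Insig1 stood at 25.8, 36.6, 9.05, 9.62 and 19.6 CPM in Aged BAM15 1 to 5, against 15.2 to 65.5 CPM (median 43.3) in Aged CTRL. Insig1 in Young BAM15 was at 16.96 to 40.7 CPM (median 35.98), against 42.9 to 73.4 CPM (median 68.1) in Young CTRL 2 to 7 and 40.03 CPM in Young CTRL 1. All 6 Young BAM15 libraries lay below Young CTRL 2 to 7, and Young CTRL 1 lay inside the Young BAM15 range. All 5 Aged BAM15 libraries lay below the Aged CTRL mean, and Aged BAM15 3 and 4 were the 2 lowest of the 24. Insig1 had a log2 change of -0.97 ± 0.35 in Young BAM15 without Young CTRL 1 and -0.90 ± 0.34 with it (SE, edgeR adjusted p = 0.224 and 0.278). The Insig1 change was -1.12 ± 0.37 in Aged BAM15 against Aged CTRL (SE, edgeR adjusted p = 0.351) and -0.49 ± 0.34 with age without Young CTRL 1.

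Aged BAM15 1 to 5 gave Insig2 at 33.1, 55.7, 30.65, 26.1 and 72.6 CPM, against 35.3 to 50.9 CPM (median 41.75) in Aged CTRL. In Young BAM15, Insig2 ran over 19.4 to 31.2 CPM (median 25.75), against 29.2 to 56.6 CPM (median 39.3) in Young CTRL 2 to 7 and 45.4 CPM in Young CTRL 1. Insig2, the second SCAP anchor, had all 6 Young BAM15 libraries below the Young CTRL mean, and a log2 change of -0.72 ± 0.23 without Young CTRL 1 and -0.73 ± 0.22 with it (SE). Between Aged BAM15 and Aged CTRL it was 0.07 ± 0.24, and with age 0.00 ± 0.23 without Young CTRL 1. Counts of Srebf2 came to 16.5, 2.203, 15.7, 23.02 and 3.86 CPM in Aged BAM15 1 to 5, against 3.33 to 25.15 CPM (median 15.65) in Aged CTRL. The Srebf2 values of Young BAM15 were 15.3 to 48.5 CPM (median 23.3), against 7.87 to 22.5 CPM (median 15.3) in Young CTRL 2 to 7 and 50.5 CPM in Young CTRL 1. Srebf2, which encodes SREBP2, ran against its enzymes in young mice: 5 of 6 Young BAM15 libraries were above the mean of Young CTRL 2 to 7. Its log2 change there was 0.95 ± 0.48, and 0.55 ± 0.49 with Young CTRL 1, at unadjusted p of 0.0586 and 0.273. The 4 libraries with low mt-Rnr2 held Srebf2 at 2.203 to 7.87 CPM, below the 10.2 CPM or more of the other 20, and the 2 highest Young BAM15 libraries, 5 and 6, also had the 2 highest B cell sums. The part of either in the Srebf2 values was not tested.

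Scap stood at 42.5, 67.1, 44.3, 42.9 and 68.4 CPM in Aged BAM15 1 to 5, against 25.96 to 70.8 CPM (median 39.6) in Aged CTRL. Scap in Young BAM15 was at 31.55 to 41.9 CPM (median 38.5), against 34.6 to 40.5 CPM (median 39.1) in Young CTRL 2 to 7 and 234 CPM in Young CTRL 1. Scap, the escort of SREBP2, was highest in Young CTRL 1. Without that library, Scap had log2 changes of -0.02 ± 0.20 in Young BAM15, 0.15 ± 0.20 with age and 0.31 ± 0.20 in Aged BAM15 against Aged CTRL, each within 2 SE of 0. Aged BAM15 1 to 5 gave Mbtps1 at 91.6, 39.9, 94.5, 99.8 and 81.6 CPM, against 40.9 to 104 CPM (median 97.4) in Aged CTRL. In Young BAM15, Mbtps1 ran over 87.65 to 110.1 CPM (median 101.5), against 78.75 to 144 CPM (median 101) in Young CTRL 2 to 7 and 83.3 CPM in Young CTRL 1. Mbtps1 and Mbtps2, the proteases that release SREBP2 in the Golgi, had log2 changes between -0.21 and 0.27 in the 3 comparisons without Young CTRL 1. The lowest Mbtps1 values, 39.9 and 40.9 CPM, and the highest, 144 CPM in Young CTRL 4, were all in libraries with low mt-Rnr2. Over the 6 regulators, the edgeR adjusted p without Young CTRL 1 was at least 0.205 in young mice, 0.324 in aged mice with BAM15 and 0.889 with age.

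In uptake, transport and storage, Npc2 had the smallest p of the module in aged mice with BAM15. Its protein binds cholesterol in the lysosome and hands it to the membrane protein Npc1. Npc2 stood at 821, 753, 506, 503 and 688 CPM in Aged BAM15 1 to 5, against 799.6 to 1769 CPM (median 1267) in Aged CTRL. Npc2 in Young BAM15 was at 455 to 962 CPM (median 601), against 653 to 1255 CPM (median 1029) in Young CTRL 2 to 7 and 534 CPM in Young CTRL 1. All 5 Aged BAM15 libraries lay below the Aged CTRL mean, and only Aged BAM15 1, at 821 CPM, reached above the lowest Aged CTRL library, at 799.6 CPM. Npc2 had a log2 change of -1.0 ± 0.27 in Aged BAM15 (SE, edgeR adjusted p = 0.257), which DESeq2 and limma-voom called. The Npc2 change was -0.53 ± 0.25 in Young BAM15 and 0.50 ± 0.24 with age, and -0.62 ± 0.24 and 0.41 ± 0.24 without Young CTRL 1. Macrophage markers moved with it: the 12 genes summed to 667 to 1503 CPM (median 1115) in Aged BAM15, against 1143 to 2511 CPM (median 2141) in Aged CTRL and 842 to 1608 CPM (median 1117) in Young CTRL 2 to 7. Of the 12, 1 had a higher median in Aged BAM15 than in Aged CTRL, and all 12 had a higher median in Aged CTRL than in Young CTRL 2 to 7. The part of macrophage RNA in the Npc2 values was not tested.

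Aged BAM15 1 to 5 gave Mylip at 21.1, 5.78, 46.3, 74.99 and 25.1 CPM, against 5.83 to 70.2 CPM (median 61.05) in Aged CTRL. In Young BAM15, Mylip ran over 16.98 to 53.2 CPM (median 46.75), against 1.56 to 38.5 CPM (median 27.5) in Young CTRL 2 to 7 and 26.5 CPM in Young CTRL 1. The Mylip groups overlapped in every comparison, with the lowest values in Young CTRL 4, Aged BAM15 2 and Aged CTRL 2. Mylip is an E3 ligase that marks lipoprotein receptors for degradation and is a target of LXR. It had log2 changes of 0.99 ± 0.60 with age and 0.81 ± 0.59 in Young BAM15 without Young CTRL 1, and -0.48 ± 0.61 in Aged BAM15 against Aged CTRL, each within 2 SE of 0. Counts of Soat1 came to 17.3, 3.92, 15.7, 27.5 and 7.44 CPM in Aged BAM15 1 to 5, against 10.5 to 40.8 CPM (median 26.9) in Aged CTRL. The Soat1 values of Young BAM15 were 12.4 to 41.8 CPM (median 23.2), against 5.42 to 27.7 CPM (median 19.1) in Young CTRL 2 to 7 and 1010 CPM in Young CTRL 1. The sign of the Soat1 change depended on 1 library: with age it was -2.65 ± 0.98 with Young CTRL 1 and 0.48 ± 0.42 without it, and in Young BAM15 -2.68 ± 0.98 and 0.45 ± 0.42. Against Aged CTRL, Aged BAM15 stood at -0.83 ± 0.45, with its lowest values in Aged BAM15 2 and 5. Npc1 and Stard4, a carrier of sterol between membranes, had log2 changes of 0.07 and -0.04 in Young BAM15, -0.15 and 0.01 in Aged BAM15 against Aged CTRL and -0.04 and -0.06 with age, without Young CTRL 1. Srebf2, Npc1, Soat1 and Nr1h2 were lower in all 4 libraries with low mt-Rnr2 than in any of the other 20, 4 of 33 members (12.1%), against 1397 of 15939 genes (8.76%).

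Among the efflux genes, Abcg1 was the member with the smallest p with age. Abcg1 exports cholesterol to HDL particles and is a target of LXR. Abcg1 stood at 13.4, 22.3, 41.3, 42.1 and 43.75 CPM in Aged BAM15 1 to 5, against 33.9 to 107 CPM (median 41.5) in Aged CTRL. Abcg1 in Young BAM15 was at 21.2 to 48.4 CPM (median 25.05), against 11.1 to 32.5 CPM (median 22.7) in Young CTRL 2 to 7 and 27.04 CPM in Young CTRL 1. All 6 Aged CTRL libraries lay above all 7 Young CTRL libraries, against 53 of 15939 genes (0.333%), and against 65 (0.408%) when Young CTRL 1 is left out. Abcg1 had a log2 change of 1.19 ± 0.32 with age, and 1.22 ± 0.34 without Young CTRL 1 (SE, edgeR adjusted p = 0.151 and 0.229). The Abcg1 change was -0.74 ± 0.35 in Aged BAM15 against Aged CTRL (SE, edgeR unadjusted p = 0.04598, and 0.05001 without Young CTRL 1). In Young BAM15 it was 0.38 ± 0.34 without Young CTRL 1. The macrophage markers given beside Npc2 had a higher median in Aged CTRL than in Young CTRL 2 to 7 for all 12. Within Aged CTRL, Abcg1 was highest in libraries 1 and 6, at 107 and 68.2 CPM. Their macrophage sums, 1597 and 1143 CPM, were the lowest of that group. The macrophage sum had a median of 2141 CPM in Aged CTRL and 1115 CPM in Aged BAM15. The Abcg1 medians were 41.5 and 41.3 CPM in the same order. The part of macrophage RNA in the Abcg1 values was not tested.

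Aged BAM15 1 to 5 gave Abca1 at 141.5, 56.8, 137, 167 and 95.4 CPM, against 69.7 to 196 CPM (median 119.8) in Aged CTRL. In Young BAM15, Abca1 ran over 101 to 162 CPM (median 117.5), against 99.4 to 212 CPM (median 149) in Young CTRL 2 to 7 and 108 CPM in Young CTRL 1. Abca1, the pump that loads cholesterol onto apolipoprotein A-I, had log2 changes of -0.06 ± 0.28 in Aged BAM15 against Aged CTRL, -0.29 ± 0.27 with age and -0.31 ± 0.27 in Young BAM15, without Young CTRL 1, and its groups overlapped throughout. Counts of Nr1h2 came to 30.5, 7.78, 36.6, 29.4 and 9.86 CPM in Aged BAM15 1 to 5, against 13.9 to 50.4 CPM (median 37.4) in Aged CTRL. The Nr1h2 values of Young BAM15 were 25.6 to 45.1 CPM (median 37.8), against 8.39 to 36.3 CPM (median 30.3) in Young CTRL 2 to 7 and 31.6 CPM in Young CTRL 1. The 4 lowest Nr1h2 values, in Aged BAM15 2 and 5, Aged CTRL 2 and Young CTRL 4, were in the libraries with low mt-Rnr2. Nr1h3 stood at 88.5, 23.9, 92.5, 81.98 and 31.1 CPM in Aged BAM15 1 to 5, against 25.8 to 99.2 CPM (median 85.9) in Aged CTRL. Nr1h3 in Young BAM15 was at 54.1 to 105 CPM (median 71.8), against 51.8 to 107 CPM (median 80.4) in Young CTRL 2 to 7 and 51.4 CPM in Young CTRL 1. Nr1h2 and Nr1h3, the LXR beta and LXR alpha receptors, both had their lowest values in libraries with low mt-Rnr2. Their log2 changes were -0.63 ± 0.39 and -0.30 ± 0.34 in Aged BAM15 against Aged CTRL, 0.37 ± 0.37 and -0.01 ± 0.32 with age, and 0.46 ± 0.37 and -0.10 ± 0.32 in Young BAM15, without Young CTRL 1. Over the 4 efflux genes the edgeR adjusted p without Young CTRL 1 was at least 0.6003 in young mice, 0.5325 in aged mice with BAM15 and 0.229 with age.

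The neighbouring routes gave 0 called genes with edgeR, with and without Young CTRL 1, in 5 lists outside the module. Of 12 genes of the isoprenoid branches, 10 had log2 changes below 0 and 2 above 0 in Young BAM15 without Young CTRL 1, with a median of -0.34. The smallest p was that of Nus1, a subunit of the enzyme that makes dolichol (-0.87 ± 0.25, SE). Of 8 genes of sterol-regulated degradation in the endoplasmic reticulum, 5 were below 0, with a median of -0.20. Of 14 genes of lipoprotein and sterol handling, 8 were below 0, with the lipoprotein receptor Vldlr at -0.90 ± 0.32. The 4 other LXR targets had 3 below 0, while Arl4c stood at 1.25 ± 0.47, and the 3 oxysterol enzymes tested were all above 0, with a median of 0.45.

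In Aged BAM15 against Aged CTRL, without Young CTRL 1, the same lists had 8 of 12, 6 of 8, 8 of 14, 2 of 4 and 2 of 3 genes below 0, in the order above. The lysosomal lipase Lipa stood at -0.76 ± 0.24, Lpcat3, an acyltransferase and LXR target, at -0.83 ± 0.22, and the sterol hydroxylase Cyp27a1 at 0.91 ± 0.34 (SE). Between Aged CTRL and Young CTRL the lists had 5, 4, 4, 3 and 0 genes below 0, with the sterol transfer protein Gramd1c at 1.64 ± 0.52. With Young CTRL 1 in the fit, Pdss1, a subunit of the enzyme that makes the coenzyme Q tail, stood at -4.80 ± 1.32 with age, and it was not the gene with the smallest p once that library was left out.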

How the data were processed

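The data are QuantSeq 3' RNA-seq libraries of inguinal fat from 24 mice, each with its own ID in the labels, in 4 groups. Per the labels, RNA was extracted with Trizol from frozen tissue of about 150 to 200 mg. The deposited count table holds raw whole-number counts per gene, 8.62 to 21.9 M per library, which limits the precision of low genes. The second deposited table holds a signal, which the authors made from the same counts by dividing each library by a size factor (tested on the files: the largest deviation was 6.519e-09), and it was used for gene symbols. The submitters' processing notes name GRCm38, R 3.4.3 and DESeq2 1.18.1; for the aligner, the read counter and the gene models the sources used here give no name, so reads shared with near-identical copies or overlapping genes could not be checked.

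The members and lists were chosen with earlier results of these data known. All 33 members are named, and values per library are given for those with the smallest p in each role and for 6 chosen ones (Hmgcs1, Sqle, Insig1, Srebf2, Abca1 and Nr1h3); outside the module only genes of 5 lists are named, at most 1 for each list and comparison, and 1 result is not reported here. In R 4.3.3, edgeR 4.0.16 (filterByExpr, TMM, quasi-likelihood F test, Benjamini-Hochberg adjustment over all genes kept) was fitted to the 4 groups without covariates, on 15939 of 17541 genes with 20 residual degrees of freedom, and on 15877 genes with 19 without Young CTRL 1. The common biological coefficient of variation was 0.621. Log2 CPM used a prior count of 2, while log2 changes came from the fitted models at their default settings. The threshold of a call was an adjusted p of 0.05. Alternatives were DESeq2 1.42.0, limma 3.58.1 (voom), other filters and scalings, covariates and left-out libraries. The scripts were tested on simulated data. Libraries of 1 group differed well beyond counting noise (chi-square per gene of at least 18.9). The p-values set the difference between groups against the spread between these libraries, which includes the libraries that stand apart. Promoter windows came from the RefSeq table of GRCm38.p6.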

Additional observations from a re-analysis of the deposited data

Results flagged for a closer look

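In groups of 5 to 7 libraries, 1 library stood far outside the range of the others for 21 of 132 combinations of a member and a group. The rule was Dixon's test at 95%, for which chance gives about 1 in 20 if combinations are independent. Members read in the same libraries are not independent, and the share over all genes was not computed. An excess particular to these members is thus not shown. Of the 21, 12 were high values in Young CTRL 1, the library with skin transcripts, among the 7 Young CTRL libraries. They were Acat2 at 301.7 CPM, Hmgcs1 at 2591 CPM, Mvk at 526.5 CPM, Mvd at 174.4 CPM, Idi1 at 97.71 CPM, Sqle at 61.28 CPM and Lss at 175.3 CPM. The others in that library were Cyp51 at 253.8 CPM, Msmo1 at 530.0 CPM, Tm7sf2 at 10.74 CPM, Scap at 233.9 CPM and Soat1 at 1010 CPM.

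Low values came mostly from the libraries with low mt-Rnr2. In Aged CTRL 2 they were Fdft1 at 6.556 CPM, Mbtps1 at 40.9 CPM, Npc1 at 12.23 CPM and Nr1h3 at 25.81 CPM. In Aged BAM15 2 it was Mbtps1, at 39.86 CPM, and in Young CTRL 4 they were Mylip at 1.563 CPM and Nr1h2 at 8.389 CPM. Outside these libraries, Young BAM15 4 was low in Mylip, at 16.98 CPM, and Young BAM15 1 was high in Abca1, at 162.3 CPM. What sets these libraries apart was not tested.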

How the results depend on the processing

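The number of genes called depended on the tool and on the libraries kept. With age, 33 genes were called by edgeR, 179 by DESeq2, 147 by limma-voom, 18 with only the groups compared, 5 with the replicate block, 16 with the epidermis covariate, 4 without Young CTRL 1 and 7, 79 when the 4 low mt-Rnr2 libraries were left out, and 20 to 46 with 1 library left out. DESeq2 called 1 member with age. With BAM15 in aged mice, DESeq2 called 105 genes and 1 member and limma-voom 964 and 4, while edgeR called 0 to 67 genes with 1 library left out, the most without Aged BAM15 1 and then 17 without Aged CTRL 2, and 0 members. With BAM15 in young mice, DESeq2 called 161 genes and 6 members and limma-voom 679 and 7, and edgeR 0 to 1 genes with 1 library left out. DESeq2 called 2 genes in the interaction.

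The median log2 change of the 18 enzymes with age, -1.04, was -0.56 with the epidermis covariate, -0.58 without Young CTRL 1 and 7 and -1.15 to -0.53 with 1 library left out. With BAM15 in young mice, -1.38 became -0.78 with limma-voom, -0.64 with the epidermis covariate, -0.69 without Young CTRL 1 and 7 and -1.51 to -0.62 with 1 library left out. With BAM15 in aged mice, -0.15 became -0.57 with limma-voom, -0.33 when the 4 low mt-Rnr2 libraries were left out and -0.48 to 0.04 with 1 library left out. The interaction was 0.50 to 1.12 with 1 library left out and 0.16 with limma-voom.

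Fits without Young CTRL 1 combined with a second choice were added after the data had been seen. With DESeq2 they called 123 genes with age, 115 (1 member) in aged and 281 (2 members) in young mice with BAM15, and with limma-voom 120, 982 (5 members) and 1073 (8 members). When the 4 low mt-Rnr2 libraries were left out as well, they called 53 with age and 4 in young mice, and with only the groups compared 8 with age. The enzyme medians with age were -0.53 (DESeq2), -0.58 (limma-voom), -0.51 (B cell covariate), -0.54 (4 more libraries left out) and -0.57 (only the groups compared). In young mice they were -0.63, -0.63, -0.34, -0.63 and -0.62 in the same order. The interaction median was 0.055 with limma-voom, 0.28 with the B cell covariate and 0.28 with the 4 more libraries left out; a fit of only the groups compared was not run for it. The cause of these differences was not tested.

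The replicate numbers did not pair the libraries: the median correlation of deviations was -0.044 over 33 pairs with the same number and 0.004 over 182 others, and 3 of 24 libraries matched best with their own number. With the replicate block, 0 members were called in the 4 comparisons and the enzyme median was -0.50 in aged mice and -1.31 in young mice with BAM15. For single members, 35 refitted values passed the threshold with another setting, and 0 changed sign after being called.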
